A study of Mus musculus with 12 samples.

Results

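The eosinophil granule genes described here are 6 of the 55487 genes listed for each library: Epx, Prg2, Prg3, Ear1, Ear2 and Ear6. They were found by symbol, and they were chosen by their measured levels, because Epx and Ear genes were near 0 in the libraries labelled Yy1-/-. Their levels against Yy1+/+ are therefore given as a description, with no test. RNA was sequenced from LSK cells, the lineage-negative, Sca1-positive and c-Kit-positive fraction of mouse bone marrow in which blood stem cells and immature progenitors are found. There were 12 libraries, 4 for each of 3 genotypes: Yy1-/- with Smc3+/-, Yy1-/- alone, and Yy1+/+. Both groups labelled Yy1-/- lack Yy1 by label, and the Smc3+/- group is set against Yy1-/- alone as well as against Yy1+/+. The labels name no Cre driver, age, sex or batch, and they do not say that each library came from its own animal, so p-values measure only the spread between these libraries, which may be technical.

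Eosinophils store cationic proteins in large granules and release them at sites of inflammation. The granule core is built from major basic protein, encoded by Prg2, and the matrix around it holds eosinophil peroxidase, encoded by Epx, and small ribonucleases, encoded in the mouse by the Ear family. Messenger RNA of these proteins is made early in the lineage, in marrow progenitors and precursors, under transcription factors of the GATA and C/EBP families, and it is low in mature blood eosinophils. In a bulk library, fewer cells of a type cannot be told apart from less RNA per cell.

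The summed expected counts were between 38671354 and 69086104 per library. Yy1 mRNA was between 0.772 and 4.45 CPM (counts relative to the library size after TMM scaling) in Yy1-/- Smc3+/- libraries and between 0.407 and 12.2 CPM in Yy1-/- libraries, against 33.9 to 41.3 CPM in Yy1+/+. The 3 libraries labelled Yy1-/- that kept more Yy1 reads than the rest were Yy1-/- replicates 3 and 4 and Yy1-/- Smc3+/- replicate 3. Smc3, a cohesin subunit, showed no drop with the Smc3+/- label, with 301 ± 38.1 CPM (SD, n = 4) against 255 ± 45.2 CPM in Yy1-/-. Kit, 1 of the 2 sort markers, was at 245 ± 87.5 CPM in Yy1-/- Smc3+/- and 176 ± 69.8 CPM in Yy1-/-, against 769 ± 243 CPM in Yy1+/+, and Ly6a, which encodes Sca1, was at 230 ± 78.5, 251 ± 88.1 and 187 ± 32.2 CPM in the same order.

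The upstream sequences of 4 members show how alike the Ear genes are and where short motifs of blood transcription factors lie. RefSeq promoter entries (GRCm38.p6) matched 5 of the 6 members, all except Prg2. Each line gives the 250 bases before the annotated start, 5′ to 3′ on the strand of the gene, with motif matches in capitals. Epx lies on the minus strand (chr11:87875537-87875786), Prg3 on the plus strand (chr2:84987965-84988214), Ear1 on the minus strand (chr14:43819640-43819889) and Ear2 on the plus strand (chr14:44102404-44102653).
Epx: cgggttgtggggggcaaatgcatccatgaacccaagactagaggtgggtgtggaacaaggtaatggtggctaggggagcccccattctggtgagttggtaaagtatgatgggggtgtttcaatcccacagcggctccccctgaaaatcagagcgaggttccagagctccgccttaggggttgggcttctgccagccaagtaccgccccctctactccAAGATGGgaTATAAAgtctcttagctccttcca
Prg3: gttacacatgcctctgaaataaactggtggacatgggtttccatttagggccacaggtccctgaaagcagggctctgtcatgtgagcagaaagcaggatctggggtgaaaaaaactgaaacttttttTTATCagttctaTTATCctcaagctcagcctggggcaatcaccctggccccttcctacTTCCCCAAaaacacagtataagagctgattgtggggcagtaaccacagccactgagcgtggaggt
Ear1: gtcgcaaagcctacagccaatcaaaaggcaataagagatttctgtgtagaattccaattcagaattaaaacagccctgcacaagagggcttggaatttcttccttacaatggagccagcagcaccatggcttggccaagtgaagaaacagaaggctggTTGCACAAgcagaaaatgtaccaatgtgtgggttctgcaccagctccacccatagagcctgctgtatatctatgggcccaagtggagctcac
Ear2: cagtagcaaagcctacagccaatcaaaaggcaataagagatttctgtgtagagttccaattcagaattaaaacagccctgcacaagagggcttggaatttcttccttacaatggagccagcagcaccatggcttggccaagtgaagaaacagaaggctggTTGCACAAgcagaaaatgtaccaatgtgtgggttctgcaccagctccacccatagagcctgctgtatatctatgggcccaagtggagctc
The capitals mark AAGATGG, a match to the YY1 motif AANATGG, and TATAAA in Epx. In Prg3 they mark TTATC, the reverse of the GATA motif GATAA, at both of its matches, and the C/EBP motif TTNNGNAA read as its reverse TTNCNNAA, which is also what they mark in Ear1 and Ear2. Both strands were searched, and no matches overlapped. The YY1 match in Epx spans bases -33 to -27 from the start and the TATAAA match bases -24 to -19. A YY1 match stood in 1 of the 5 member promoters and in 12.4% of 32851 RefSeq promoters of the same length. A C/EBP match stood in 4 of 5, those of Prg3, Ear1, Ear2 and Ear6, and in 36.8% of all, and a GATAA match in 1 of 5 and in 22.6% of all. The PU.1 motif GAGGAA was in none of the 5 windows and in 23.3% of all promoters. The windows of Ear1 and Ear2 were 97.6% identical, and that of Ear6 was 78.2% identical to that of Ear1. The RefSeq starts of Ear1 and Ear6 differ from the GENCODE gene starts, whose spans are given below, so the Ear1 window lies inside the annotated gene and the Ear6 window, which is not printed, overlaps its first bases. These matches describe letters and were not tested for binding.

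Epx encodes eosinophil peroxidase, a haem enzyme that makes hypohalous acids (ENSMUSG00000052234.2, chr11:87864000-87875536, minus strand, GRCm38). It was counted in 1 of the 8 libraries labelled Yy1-/-. Yy1-/- Smc3+/- replicate 1 had 0.75 CPM, from 34 counts, and replicates 2 to 4 had 0. All 4 Yy1-/- libraries had 0, against 146, 589, 48.3 and 19.5 CPM in Yy1+/+ replicates 1 to 4. The Yy1+/+ libraries were all above the others, and they differed 30.2-fold among themselves. Taken over the group, 3 counts correspond to 0.0171 CPM in Yy1-/-, which makes the mean at least 11771-fold lower than in Yy1+/+, or at least 4179-fold lower without Yy1+/+ replicate 2. In Yy1-/- Smc3+/- the mean of 0.187 ± 0.375 CPM was 1071-fold lower than the Yy1+/+ mean of 201 ± 264 CPM (SD, n = 4 each), and it rests on that 1 library. Without Yy1+/+ replicate 2 this ratio was 380-fold. Such floors cover counting error only.

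**Figure D1:**
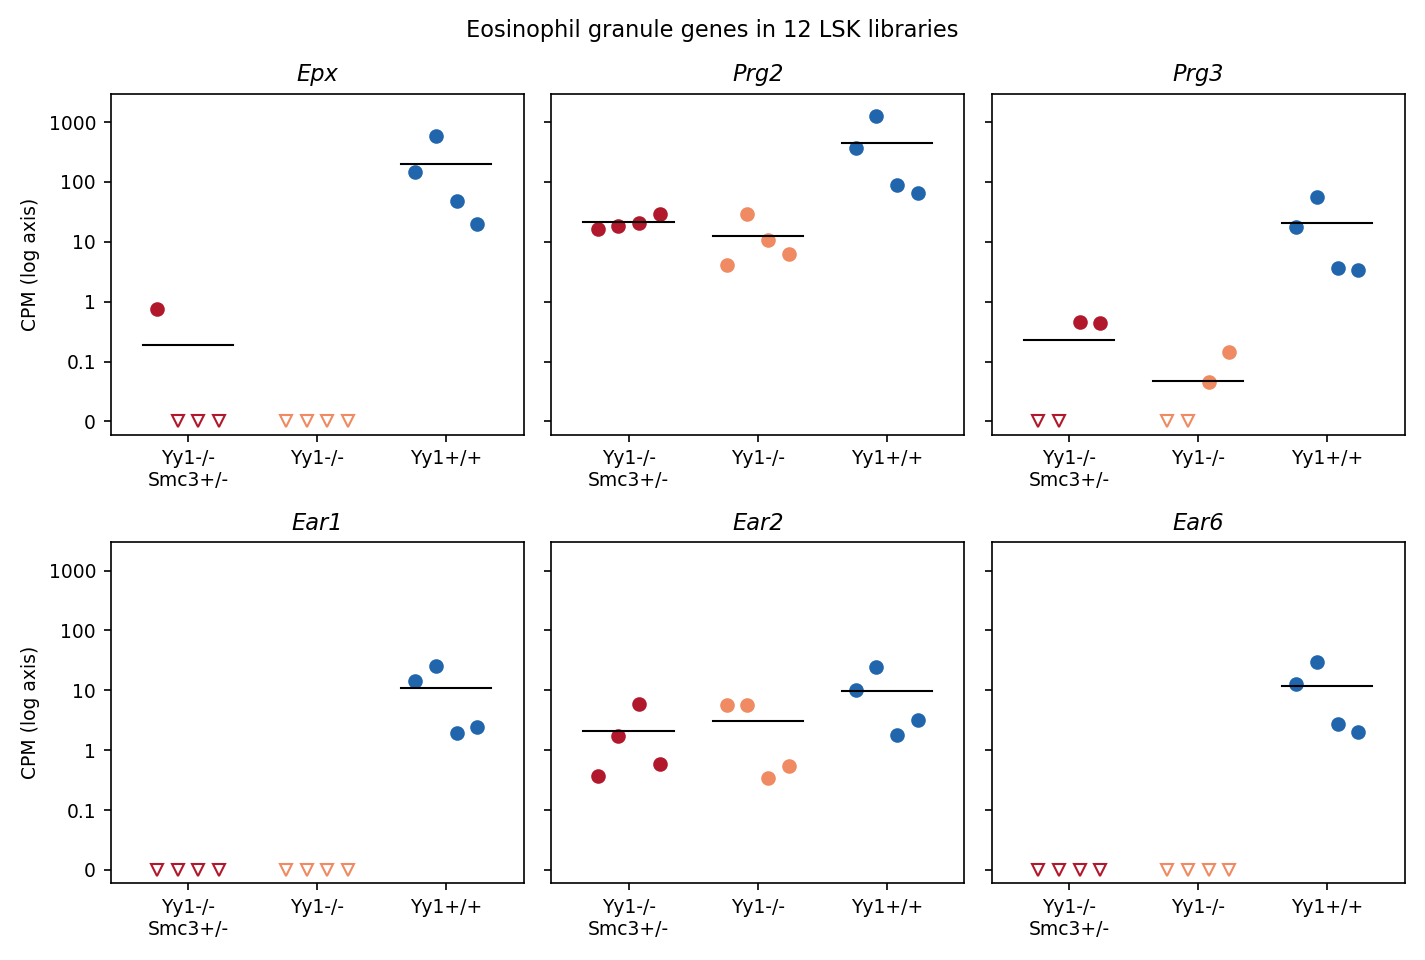
Levels of the 6 genes in each library, in CPM on a log axis, with Yy1-/- Smc3+/-, Yy1-/- and Yy1+/+ from left to right; each point is 1 library in the order of replicates 1 to 4, open triangles stand for libraries at 0, and lines are group means. Epx, Ear1 and Ear6 sit at 0 in all Yy1-/- libraries, Prg2 stays between 4.04 and 28.9 CPM in the libraries labelled Yy1-/-, and only Ear2 overlaps the Yy1+/+ libraries.

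Prg2 encodes the proform of major basic protein, the arginine-rich protein of the granule core that is toxic to parasites (ENSMUSG00000027073.5, chr2:84980461-84983632, plus strand). Its level was 16.3, 18.6, 20.8 and 28.9 CPM in Yy1-/- Smc3+/- replicates 1 to 4 and 4.04, 28.6, 10.5 and 6.26 CPM in Yy1-/- replicates 1 to 4. In Yy1+/+ it was 374, 1270, 87.7 and 64.1 CPM. The lowest Yy1+/+ library lay above all 8 libraries labelled Yy1-/-, and Prg2 was detected in all 12. The mean of 21.1 ± 5.49 CPM in Yy1-/- Smc3+/- was 4.71% of the Yy1+/+ mean of 449 ± 565 CPM, and the mean of 12.4 ± 11.2 CPM in Yy1-/- was 2.75% of it (SD, n = 4 each). Without Yy1+/+ replicate 2 these shares were 12.1% and 7.05%.

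Prg3 encodes a second major basic protein, a less basic homologue of the Prg2 product, and lies next to Prg2 on chromosome 2 (ENSMUSG00000027072.13, chr2:84988215-84993886, plus strand). In Yy1-/- Smc3+/- replicates 3 and 4 it had 0.466 and 0.447 CPM, and it was at 0 in replicates 1 and 2. In Yy1-/- replicates 3 and 4 it had 0.0449 and 0.143 CPM, again with 0 in replicates 1 and 2. In Yy1+/+ it had 18, 56, 3.7 and 3.4 CPM. No library labelled Yy1-/- reached the lowest Yy1+/+ library. The mean was 1.13% of the Yy1+/+ mean in Yy1-/- Smc3+/- and 0.232% in Yy1-/-, and 2.73% and 0.563% without Yy1+/+ replicate 2.

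Ear1, Ear2 and Ear6 encode eosinophil-associated ribonucleases, a mouse family of secreted RNases that corresponds to the human eosinophil cationic protein and eosinophil-derived neurotoxin. All 3 lie on chromosome 14, Ear1 (ENSMUSG00000072601.4) at chr14:43818765-43875517 on the minus strand, Ear2 (ENSMUSG00000072596.4) at chr14:44102654-44103534 and Ear6 (ENSMUSG00000062148.6) at chr14:51853699-51854643, both on the plus strand. Ear1 had 0 counts in every Yy1-/- Smc3+/- and Yy1-/- library, against 14.3, 25.8, 1.92 and 2.48 CPM in Yy1+/+ replicates 1 to 4. Ear6 also had 0 counts in those 8 libraries, against 12.8, 29.6, 2.74 and 2.03 CPM in Yy1+/+. With 3 counts over a group as the floor, Ear1 was at least 619-fold lower in Yy1-/- Smc3+/- and at least 652-fold lower in Yy1-/-, and Ear6 at least 656-fold and 691-fold lower in the same groups. Without Yy1+/+ replicate 2 these bounds were 347-fold and 365-fold for Ear1 and 325-fold and 343-fold for Ear6.

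Ear2 did not follow them. It had 0.375, 1.71, 5.82 and 0.596 CPM in Yy1-/- Smc3+/- and 5.69, 5.74, 0.337 and 0.549 CPM in Yy1-/-, against 10.3, 24.1, 1.79 and 3.16 CPM in Yy1+/+. Yy1-/- replicates 1 and 2 and Yy1-/- Smc3+/- replicate 3 lay above Yy1+/+ replicates 3 and 4, so the groups overlap. The mean was 21.6% of the Yy1+/+ mean in Yy1-/- Smc3+/- and 31.3% in Yy1-/-, and 41.9% and 60.7% without Yy1+/+ replicate 2. Ear2 transcripts are also known from mouse monocytes and macrophages. Of 14 measured monocyte markers, 13 reached 1 CPM in at least 1 library of each group labelled Yy1-/-, and their summed level was 6228 and 4454 CPM in Yy1-/- replicates 1 and 2 and 748 and 1021 CPM in replicates 3 and 4. In Yy1-/- Smc3+/- the monocyte sum was 827 to 1518 CPM, and replicate 3, which had the most Ear2, was not the highest. Lyz2, the lysozyme gene of phagocytes, had 4248 CPM in Yy1-/- replicate 1 and 177 CPM in replicate 3, and it did not pass (edgeR adjusted p = 0.0994). Csf1r, the receptor for macrophage colony-stimulating factor, had 495 and 43.2 CPM in the same libraries. Of 14 tested monocyte markers, 7 rose and 2 fell in Yy1-/- against Yy1+/+, where 16.3% of all tested genes rose and 18.8% fell. In Yy1-/- Smc3+/-, 4 rose and 1 fell, where 13.1% of all tested genes rose and 16.7% fell. The part of monocyte RNA in the Ear2 reads was not tested.

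Reads of the Ear genes can be divided between near-identical copies by the expected-count method. The Ear1 and Ear2 transcripts were 96.0% identical in a global alignment, and Ear6 was 88.5% identical to Ear1 and 88.2% to Ear2. Of their sequence, 28.6% of all 50-base windows of Ear1 and 37.6% of those of Ear2 also occurred in another family member, against 1.36% of those of Ear6. Shared windows do not measure how uncertain the levels of Ear1 and Ear2 are relative to each other. The expected counts of Ear1, Ear2 and Ear6 were whole numbers in all 12 libraries, so no fractional division of reads shows. Shared reads given wholly to a single copy would not show in this way. Ear10 and Ear14, which encode further members of the family, had 0 counts in all 12 libraries.

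Counting the members by position, 5 of 6 had every library of Yy1-/- Smc3+/- below every Yy1+/+ library, where 17.6% of all 16649 tested genes did so. The same 5 of 6 lay below Yy1+/+ in every Yy1-/- library, where 17.5% of all tested genes did so. Ear2 was the exception in both. These contrasts chose the genes, and nothing is read from the counts. All 6 passed the filter on low counts, and for Epx, Prg3, Ear1 and Ear6 this rested on the Yy1+/+ libraries.

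The make-up of the granule transcripts is given as a description only, since near-0 levels of Epx and Ear genes chose the members. A low Epx share in libraries labelled Yy1-/- follows from that choice, and the Prg2 shares of the groups overlap. In TPM, which corrects for transcript length, Prg2 made up 72.5% to 96.2% of the summed level of the 6 genes in Yy1-/- Smc3+/- libraries and 35.5% to 95.7% in Yy1-/- libraries, against 78.9% to 81.9% in Yy1+/+. In Yy1+/+ the 3 Ear genes together held 6.71% to 12.3%, Epx 5.31% to 9.71% and Prg3 2.78% to 3.46%, in libraries whose sums ran from 222 to 3429 TPM. Epx held 0.973% in 1 Yy1-/- Smc3+/- library and 0 elsewhere among the libraries labelled Yy1-/-. The Ear share reached 64.5% in Yy1-/- replicate 1, all of it Ear2, which held 100% of the Ear TPM in all 8 of those libraries against 27.3% to 40.8% in Yy1+/+.

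Set against Prg2 reads in the same library, Epx and Prg3 reads were fewer in the libraries labelled Yy1-/-. Per 100 expected counts of Prg2, Epx had 4.61 in Yy1-/- Smc3+/- replicate 1 and 0 in replicates 2 to 4, where 3 counts would be 0.378, 0.374 and 0.258. It had 0 in all Yy1-/- replicates, where 3 counts would be 1.89, 0.209, 0.64 and 1.15. In Yy1+/+ replicates 1 to 4 it had 39, 46.4, 55.1 and 30.4. Pooled over a group, this is 34 Epx counts beside 3498 of Prg2 in Yy1-/- Smc3+/- and 0 beside 2326 in Yy1-/-, against 48179 beside 107234 in Yy1+/+. Prg3 per 100 Prg2 counts was 0, 0, 2.24 and 1.55 in Yy1-/- Smc3+/- and 0, 0, 0.426 and 2.29 in Yy1-/-, against 4.81, 4.41, 4.22 and 5.31 in Yy1+/+. Every library labelled Yy1-/- was below the lowest Yy1+/+ library for both ratios, and the ratios were not tested because both genes were chosen for their levels.

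**Figure D2:**
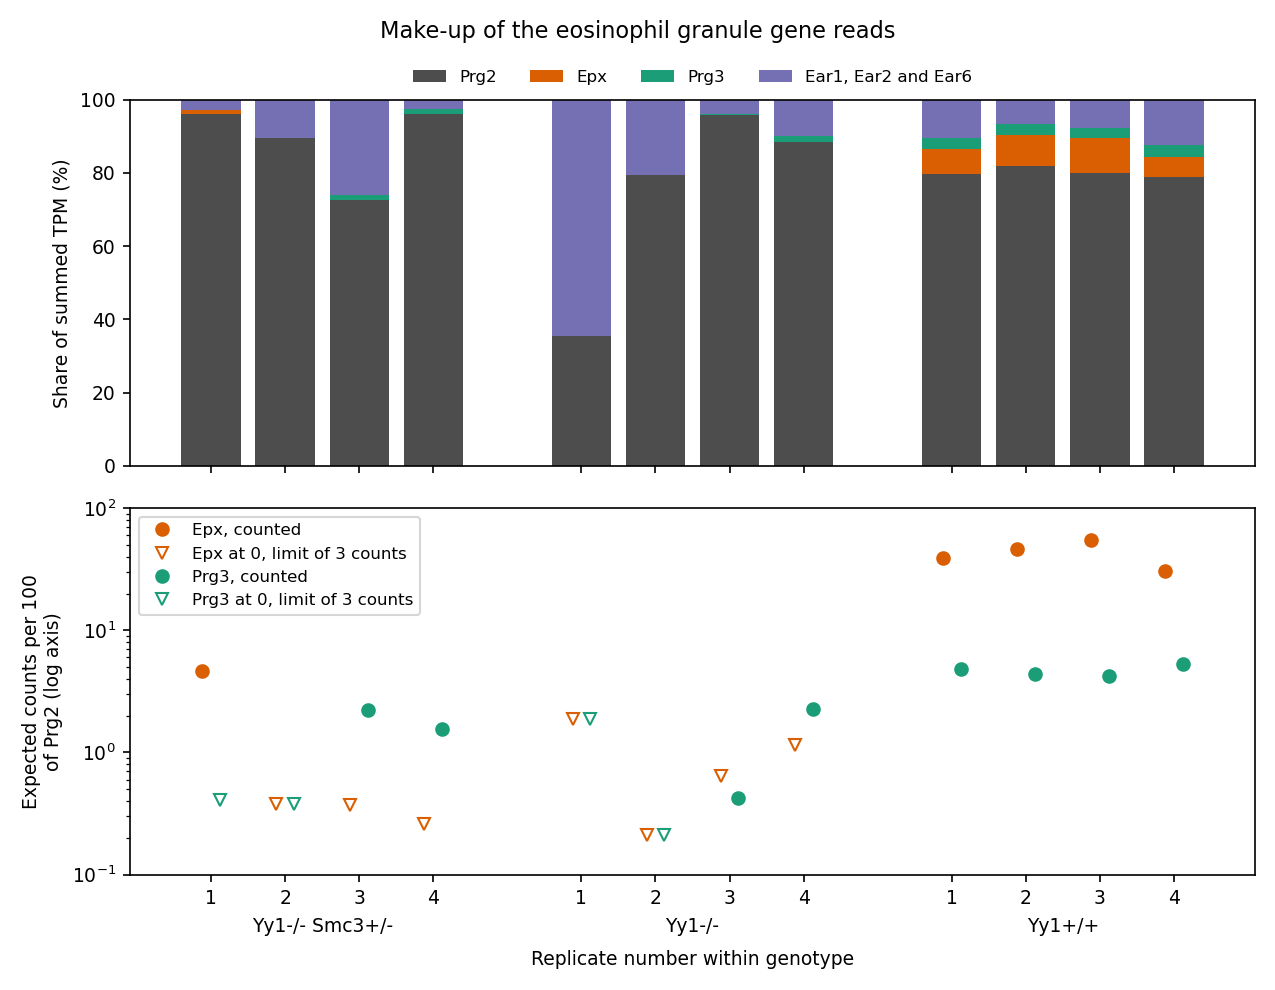
Upper panel: share of the summed TPM of the 6 genes held by Prg2, Epx, Prg3 and the 3 Ear genes in each library (%). Lower panel: expected counts of Epx and Prg3 per 100 of Prg2 on a log axis, with open triangles at the value of 3 counts where a gene was at 0; Epx lies between 30.4 and 55.1 in Yy1+/+ and at 4.61 or under the open triangles in the libraries labelled Yy1-/-.

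The summed level of the 6 genes was 23.7 ± 5.81 CPM in Yy1-/- Smc3+/- and 15.5 ± 12.7 CPM in Yy1-/-, against 703 ± 888 CPM in Yy1+/+, where it ran from 94.6 to 1994 CPM (SD, n = 4 each). Replicate 2 was the highest and replicate 1 the next for each of the 6 genes, and the highest library exceeded the lowest by 13.4-fold for Ear1 to 30.2-fold for Epx. The sum in Yy1-/- Smc3+/- was 3.37% of that in Yy1+/+ and the sum in Yy1-/- 2.2%, and without Yy1+/+ replicate 2 these were 8.7% and 5.69%. Replicate 2 was also the deepest library. The members varied together, with Pearson r between log2(CPM + 0.5) values of 0.92 to 0.997 for all pairs without Ear2 and of 0.61 to 0.69 for the pairs with it, over the 12 libraries, which share the contrast that chose the genes.

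The comparison of Yy1-/- Smc3+/- with Yy1-/- asks whether the granule genes differ with the Smc3+/- label on the Yy1-/- background. Genes near 0 in both groups cannot be tested here, and being near 0 in libraries labelled Yy1-/- is what chose the genes. Ear1 and Ear6 had no counts in either group and allow no fold. Epx and Prg3 had totals of 34 and 36 counts in Yy1-/- Smc3+/-, against 0 and 8 counts in Yy1-/-, and they entered the model only through the Yy1+/+ libraries, so their p-values are not given. Prg2 and Ear2 had counts in all 8 libraries. Prg2 had a log2 fold change of 0.76 ± 0.82 (SE), with a 95% interval of -1.02 to 2.53 and an edgeR adjusted p of 0.886. Ear2 had -0.58 ± 1.06, with an interval of -2.87 to 1.71 and an edgeR adjusted p of 0.942. Neither passed the edgeR quasi-likelihood test, where 0.036% of all tested genes did, that is 6 genes, all higher in Yy1-/- Smc3+/-. Over all genes, 1076 had an unadjusted p under 0.05, and DESeq2 called 75. The intervals of Prg2 and Ear2 include changes of over 2-fold in both directions, so a difference of that size is not excluded in either direction.

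Genes for the receptors, regulators and enzymes of eosinophils rose more often than they fell. Of 39 tested genes on 3 lists, 13 rose and 5 fell in Yy1-/- Smc3+/- against Yy1+/+, where 13.1% of all tested genes rose and 16.7% fell. In Yy1-/- against Yy1+/+, 16 rose and 5 fell, where 16.3% rose and 18.8% fell. The counts that fell were under these shares in both comparisons. The median log2 fold change of the 39 was 0.42 in the first comparison and 0.54 in the second, against 0.02 and 0.01 over all tested genes. Both comparisons share the Yy1+/+ libraries. In Yy1-/- Smc3+/- against Yy1-/-, 0 of the 39 rose and 0 fell by edgeR, where 0.036% rose and 0% fell.

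Among 14 receptors, 7 rose and 0 fell in Yy1-/- Smc3+/- (median log2 fold change 1.13), where 13.1% of all tested genes rose and 16.7% fell. In Yy1-/-, 8 rose and 0 fell (median 1.52), where 16.3% of all tested genes rose and 18.8% fell. The 7 were Csf2rb, Csf2rb2, Csf2ra, Ccr1, Pirb, C3ar1 and Adgre1, and Cd300lf joined them in Yy1-/-. Il5ra, Ccr3 and Siglecf passed in neither comparison. Siglecf changed by 0.36 on the log2 scale (edgeR adjusted p = 0.476) in Yy1-/- Smc3+/- and by 0.47 (edgeR adjusted p = 0.325) in Yy1-/-. Csf2ra, Adgre1, Cd300lf and Siglecf were named after their values were seen. Il5ra encodes the chain specific to interleukin 5, the main growth factor of the lineage. Its level was 2.4, 1.78, 1.11 and 0.894 CPM in Yy1-/- Smc3+/- and 0.737, 3.29, 0.808 and 1.07 CPM in Yy1-/-, against 0.15, 2.12, 0.237 and 1.26 CPM in Yy1+/+. The groups overlap, and the log2 fold change was 0.67 ± 0.70 (edgeR adjusted p = 0.505) in Yy1-/- Smc3+/- and 0.63 ± 0.70 (edgeR adjusted p = 0.508) in Yy1-/-, where it was -0.17 without Yy1-/- replicate 2. Ccr3, the eotaxin receptor, had 1.18 ± 0.576 CPM in Yy1-/- Smc3+/- and 1.79 ± 2.13 CPM in Yy1-/-, against 0.667 ± 0.365 CPM in Yy1+/+ (SD, n = 4 each), and it did not pass in either comparison. It rose in Yy1-/- (2.38, edgeR adjusted p = 0.00961) only without the 3 libraries with more Yy1 reads, an exclusion chosen after seeing the data. That fit kept Yy1-/- replicates 1 and 2, where Ccr3 was at 2.36 and 4.56 CPM, and dropped replicates 3 and 4, at 0.0449 and 0.191 CPM. In the Yy1+/+ library with the most granule gene reads, replicate 2, Ccr3 was at 0.821 CPM and Il5ra at 2.12 CPM.

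Csf2rb, the signalling chain shared by the receptors for interleukin 3, interleukin 5 and GM-CSF, had 155 ± 31.5 CPM in Yy1-/- Smc3+/- and 174 ± 39.3 CPM in Yy1-/-, against 58.7 ± 10.6 CPM in Yy1+/+. It rose by 1.40 ± 0.20 on the log2 scale (edgeR adjusted p = 0.000255) in Yy1-/- Smc3+/- and by 1.56 ± 0.20 (edgeR adjusted p = 0.000109) in Yy1-/-, with every library above every Yy1+/+ library, as was the case for 14.7% and 13.4% of all tested genes. Its neighbour Csf2rb2, the chain for interleukin 3 alone, rose by 1.54 and 1.80. Ccr1, a chemokine receptor, had 16.2 to 41.9 CPM in Yy1-/- Smc3+/- and 33.4 to 125 CPM in Yy1-/-, against 0.225 to 2.93 CPM in Yy1+/+, which are log2 fold changes of 4.33 ± 0.59 and 5.65 ± 0.60. Pirb, an inhibitory receptor, rose by 2.37 ± 0.62 and 3.86 ± 0.65, and C3ar1, a receptor for complement C3a, by 4.93 ± 1.41 and 6.91 ± 1.39 (1.89 and 2.70 on the log2(TPM + 1) scale, where the first was not called). Ccr1, Pirb and C3ar1 are also expressed by monocytes. All 3 were highest in Yy1-/- replicates 1 and 2, the libraries with the highest monocyte sums, and so were Adgre1 and Cd300lf. The part of monocyte RNA in the reads of these receptors was not tested. The call of C3ar1 in Yy1-/- Smc3+/- was lost without replicate 2 of that group, at edgeR adjusted p = 0.0568, and without Yy1+/+ replicate 2, at 0.0565, within a range of 0.000124 to 0.126 over its alternatives.

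Among 14 regulators of the lineage, 3 rose and 3 fell in Yy1-/- Smc3+/-, where 13.1% of all tested genes rose and 16.7% fell. In Yy1-/-, 4 rose and 3 fell, where 16.3% of all tested genes rose and 18.8% fell. The counts that fell were near these shares. The 3 that fell in both were Gata1, Gata2 and Zfpm1. Gata1 encodes the factor required for eosinophil formation, Gata2 a related factor of progenitors, and Zfpm1 the GATA cofactor FOG1, which restrains eosinophil genes in avian progenitors. Gata1 had 5.78, 7.88, 21.7 and 2.36 CPM in Yy1-/- Smc3+/- and 3.76, 5.7, 26.4 and 22.7 CPM in Yy1-/-, against 65.3, 36.5, 48.7 and 48.8 CPM in Yy1+/+. Every library labelled Yy1-/- was below every Yy1+/+ library, and the highest of them were the 3 with more Yy1 reads. The log2 fold change was -2.41 ± 0.64 (edgeR adjusted p = 0.0124) in Yy1-/- Smc3+/- and -1.77 ± 0.61 (edgeR adjusted p = 0.0389) in Yy1-/-, and the call in Yy1-/- was lost on leaving out Yy1+/+ replicate 1, 3 or 4 or Yy1-/- replicate 1 or 2, at adjusted p between 0.0624 and 0.0905. Without the 3 libraries with more Yy1 reads it was -3.41. Gata1 is also a defining gene of the erythroid and megakaryocyte lineages, whose marker sums were 236 to 649 CPM and 135 to 292 CPM in Yy1-/- Smc3+/- and 189 to 1032 CPM and 255 to 287 CPM in Yy1-/-, against 1759 to 2686 CPM and 913 to 1273 CPM in Yy1+/+; their part in the Gata1 reads was not tested.

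Gata2 had 87.1 ± 28 CPM in Yy1-/- Smc3+/- and 70.5 ± 14.8 CPM in Yy1-/-, against 309 ± 44.3 CPM in Yy1+/+, log2 fold changes of -1.83 ± 0.23 (edgeR adjusted p = 0.000125) and -2.13 ± 0.24 (edgeR adjusted p = 4.19e-05). Zfpm1 changed by -1.79 ± 0.29 and -2.48 ± 0.30. Cebpa, Spi1 and Id2 rose in both comparisons. Cebpa, which drives granulocyte and eosinophil commitment, rose by 1.33 ± 0.28 and 1.21 ± 0.28, Spi1, which encodes PU.1, by 0.76 ± 0.21 and 0.94 ± 0.21, and Id2, an inhibitor of E proteins, by 1.55 ± 0.33 and 2.35 ± 0.34. Without the 3 libraries with more Yy1 reads, Spi1 was no longer called in Yy1-/- Smc3+/- (0.62, edgeR adjusted p = 0.0655), nor without Yy1+/+ replicate 4 (0.69, edgeR adjusted p = 0.0539). With TPM in place of counts, the change of Cebpa in Yy1-/- was 0.77 on the log2(TPM + 1) scale (limma adjusted p = 0.066). Irf8, a monocyte factor, was at 0.55 on the log2 scale (edgeR adjusted p = 0.179) in Yy1-/- Smc3+/-, and it passed there without Yy1+/+ replicate 1 (0.85). It rose by 0.82 (edgeR adjusted p = 0.045) in Yy1-/-, a call lost under 13 of 20 alternatives. Cebpe, needed for the late granule programme, and Xbp1, needed for eosinophil differentiation in the mouse, did not pass: Cebpe had 2.58 ± 3.18 and 3.62 ± 2.3 CPM, against 4.13 ± 3.07 CPM in Yy1+/+, and Xbp1 352 ± 76 and 257 ± 60 CPM, against 285 ± 118 CPM.

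Among 11 tested enzymes and granule-handling genes, 3 rose and 2 fell in Yy1-/- Smc3+/-, where 13.1% of all tested genes rose and 16.7% fell. In Yy1-/-, 4 rose and 2 fell, where 16.3% of all tested genes rose and 18.8% fell. The counts that fell were near these shares. Alox5 and Alox5ap, which make leukotrienes, rose by 1.43 ± 0.48 and 1.08 ± 0.19 in Yy1-/- Smc3+/- and by 2.33 ± 0.48 and 1.49 ± 0.19 in Yy1-/-. The Alox5 call in Yy1-/- Smc3+/- (edgeR adjusted p = 0.0371) was lost on leaving out any 1 library of that group or Yy1+/+ replicate 2, 3 or 4, at up to 0.0959. Cst7, a cysteine protease inhibitor, rose by 1.66 ± 0.33 and 1.19 ± 0.33, and in Yy1-/- it was at 0.82 without the 3 libraries with more Yy1 reads (edgeR adjusted p = 0.0847). Cd63, a membrane protein of secretory granules, had 19.2, 21.7, 93.1 and 5.79 CPM in Yy1-/- Smc3+/- and 51.7, 45.8, 29.4 and 60.6 CPM in Yy1-/-, against 274, 474, 207 and 262 CPM in Yy1+/+. It fell by 3.13 ± 0.62 (edgeR adjusted p = 0.00246) and 2.70 ± 0.61 (edgeR adjusted p = 0.00441) on the log2 scale with no overlap. Rnase6, a ribonuclease of the same superfamily as the Ear genes, had 18.1 ± 2.51 and 21.9 ± 4.62 CPM, against 52.8 ± 5.16 CPM in Yy1+/+, and it fell by 1.55 ± 0.18 and 1.27 ± 0.18.

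**Figure D3:**
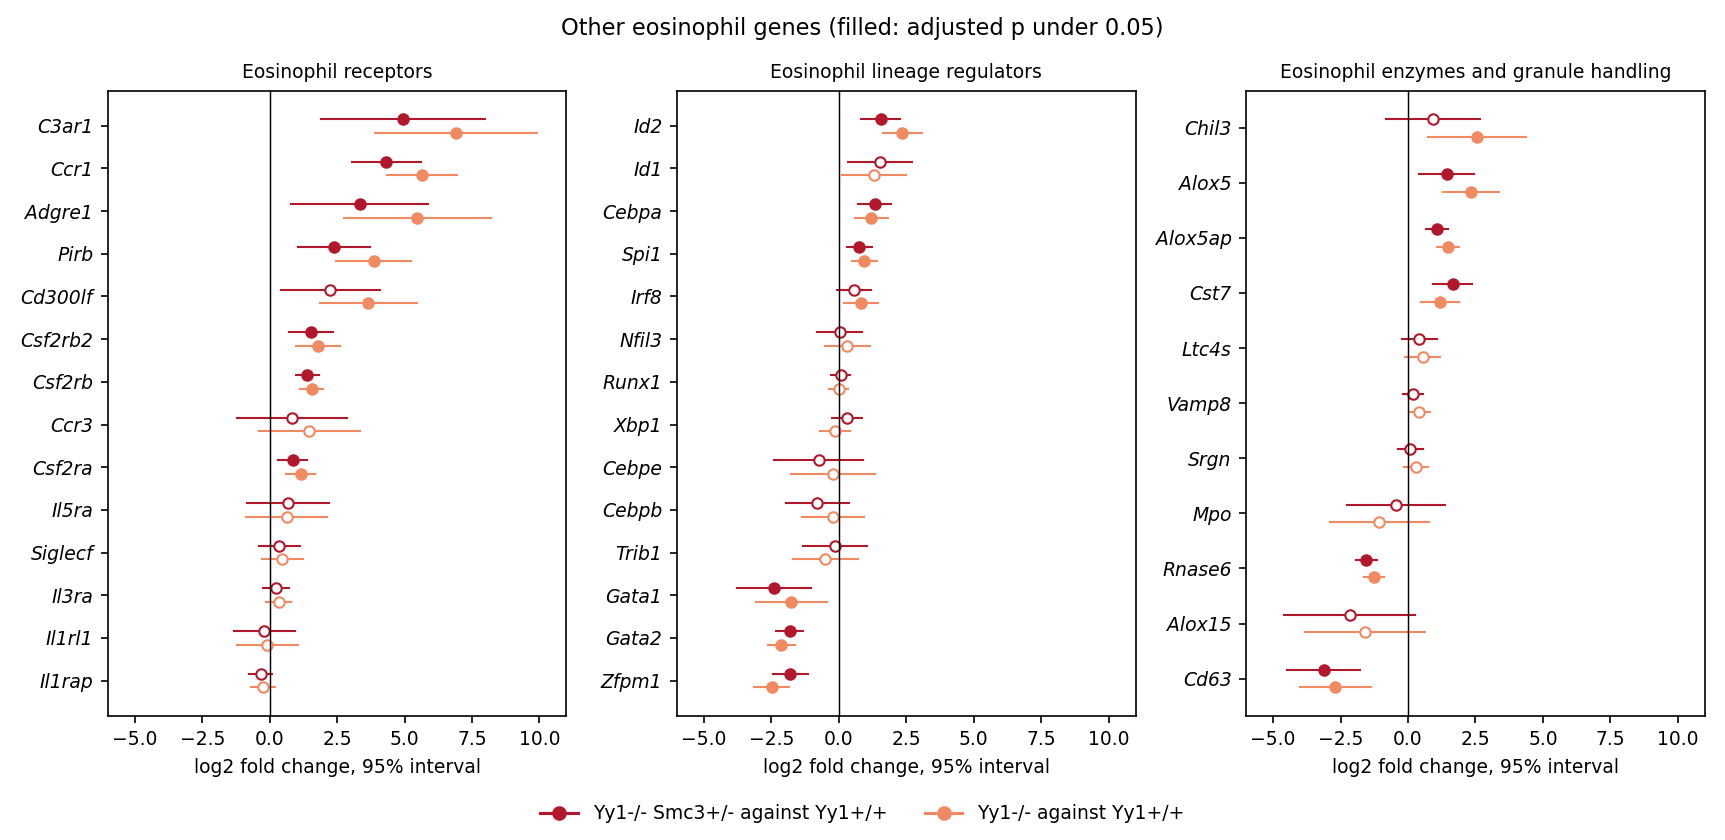
Log2 fold changes with 95% intervals for 39 tested receptor, regulator and enzyme genes of eosinophils, for Yy1-/- Smc3+/- against Yy1+/+ (dark red, upper of each pair) and Yy1-/- against Yy1+/+ (orange, lower); filled points passed an edgeR adjusted p under 0.05. Gata1, Gata2, Zfpm1, Cd63 and Rnase6 are the 5 genes that fell in each comparison.

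Markers of other marrow cell types were set beside the granule genes. Of 14 measured basophil and mast cell markers, 10 reached 1 CPM in a library of Yy1-/- Smc3+/- and 10 in Yy1-/-, against 8 in Yy1+/+. Their summed level was 77.5 to 199 CPM in Yy1-/- Smc3+/- and 72.9 to 154 CPM in Yy1-/-, against 51.7 to 289 CPM in Yy1+/+, with Mcpt1 at 0 in all libraries and Tpsab1 at 0 in Yy1+/+. The sum hides changes in both directions. Of 12 tested genes of the list, 4 rose (Cma1, Tpsb2, Gzmb and Cd200r3) and 3 fell (Prss34, Ms4a2 and Il4) in Yy1-/- Smc3+/- against Yy1+/+, and in Yy1-/- the same 4 and Mcpt4 rose and the same 3 fell. These genes other than Prss34 were named after their values were seen. Over all tested genes, 13.1% rose and 16.7% fell in Yy1-/- Smc3+/-, and 16.3% rose and 18.8% fell in Yy1-/-. Log2 fold changes in Yy1-/- Smc3+/- and Yy1-/- were -2.02 and -2.15 for Ms4a2, the beta chain of the IgE receptor, and -3.10 and -2.76 for Il4, with edgeR adjusted p-values up to 0.0241. Cma1, a mast cell chymase, averaged 13.3 CPM in Yy1-/- Smc3+/- and 12.7 CPM in Yy1-/-, against 0.155 CPM in Yy1+/+. Cma1, Tpsb2 and Mcpt4 were near 0 in Yy1+/+ and entered the model only through the libraries labelled Yy1-/-. Their rises are therefore a description, and their folds and p-values are not given. Prss34, a basophil protease, had 5.25, 0.749, 0 and 0 CPM in Yy1-/- Smc3+/- and 0.508, 0, 0.988 and 0 CPM in Yy1-/-, against 84.3, 145, 9.02 and 34.2 CPM in Yy1+/+. Its log2 fold change was -5.44 ± 1.00 (edgeR adjusted p = 0.00128) and -7.54 ± 1.20 (edgeR adjusted p = 0.000435), and no library labelled Yy1-/- reached the lowest Yy1+/+ library. Mcpt8, a second basophil protease, had 31.5 ± 6.61 and 31.4 ± 3.5 CPM, against 18.6 ± 12.5 CPM in Yy1+/+, and Cpa3, the carboxypeptidase of mast cells, 43.7 ± 14.9 and 38.6 ± 17.7 CPM, against 23.4 ± 5.98 CPM, and neither passed. The part of basophil RNA in the granule gene reads was not tested.

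The Yy1+/+ libraries with the most granule gene reads, replicates 1 and 2, also had the higher neutrophil sums in that genotype, 3609 and 3440 CPM against 696 and 1071 CPM in replicates 3 and 4, and the higher monocyte sums, 1665 and 3928 CPM against 636 and 962 CPM. Of the sum in replicate 2, Nr4a1 alone made up 2859 CPM, and without this gene, left out after seeing the data, the monocyte sums of Yy1+/+ replicates 1 to 4 were 1404, 1069, 626 and 869 CPM. The neutrophil sums of the genotypes overlapped, at 1410 to 7354 CPM in Yy1-/- Smc3+/- and 2459 to 6774 CPM in Yy1-/-, against 696 to 3609 CPM in Yy1+/+. Granule gene reads averaged 23.7 CPM in Yy1-/- Smc3+/- and 15.5 CPM in Yy1-/-, and low levels there chose the genes. Within Yy1-/-, replicate 2 had the highest of both sums, 6774 and 34.4 CPM. Within Yy1-/- Smc3+/-, the neutrophil sum was highest in replicate 3 and the granule sum in replicate 4. The part of neutrophil RNA was not tested. A list of 9 lineage depletion genes was drawn up for this report and is not the panel used in the sort. Its genes summed to 265 to 417 CPM in Yy1-/- Smc3+/- and 295 to 656 CPM in Yy1-/-, against 223 to 298 CPM in Yy1+/+. Ptprc, which encodes CD45, made up much of these sums, at 236 ± 45.1 CPM in Yy1-/- Smc3+/- and 262 ± 53.9 CPM in Yy1-/-, against 218 ± 23.5 CPM in Yy1+/+. Without it the sums were 91.2 to 142 CPM and 85 to 323 CPM, against 39.6 to 75.3 CPM. Cd3e, a T cell gene, and Il7r, the interleukin 7 receptor, rose in both comparisons, and Itgam, which encodes CD11b, rose in Yy1-/-, with Cd3e named after its values were seen. Cd3e averaged 0.109 CPM in Yy1+/+ and entered the model only through the libraries labelled Yy1-/-, so its rise is a description. How completely the sort removed other cells was not tested.

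**Figure D4:**
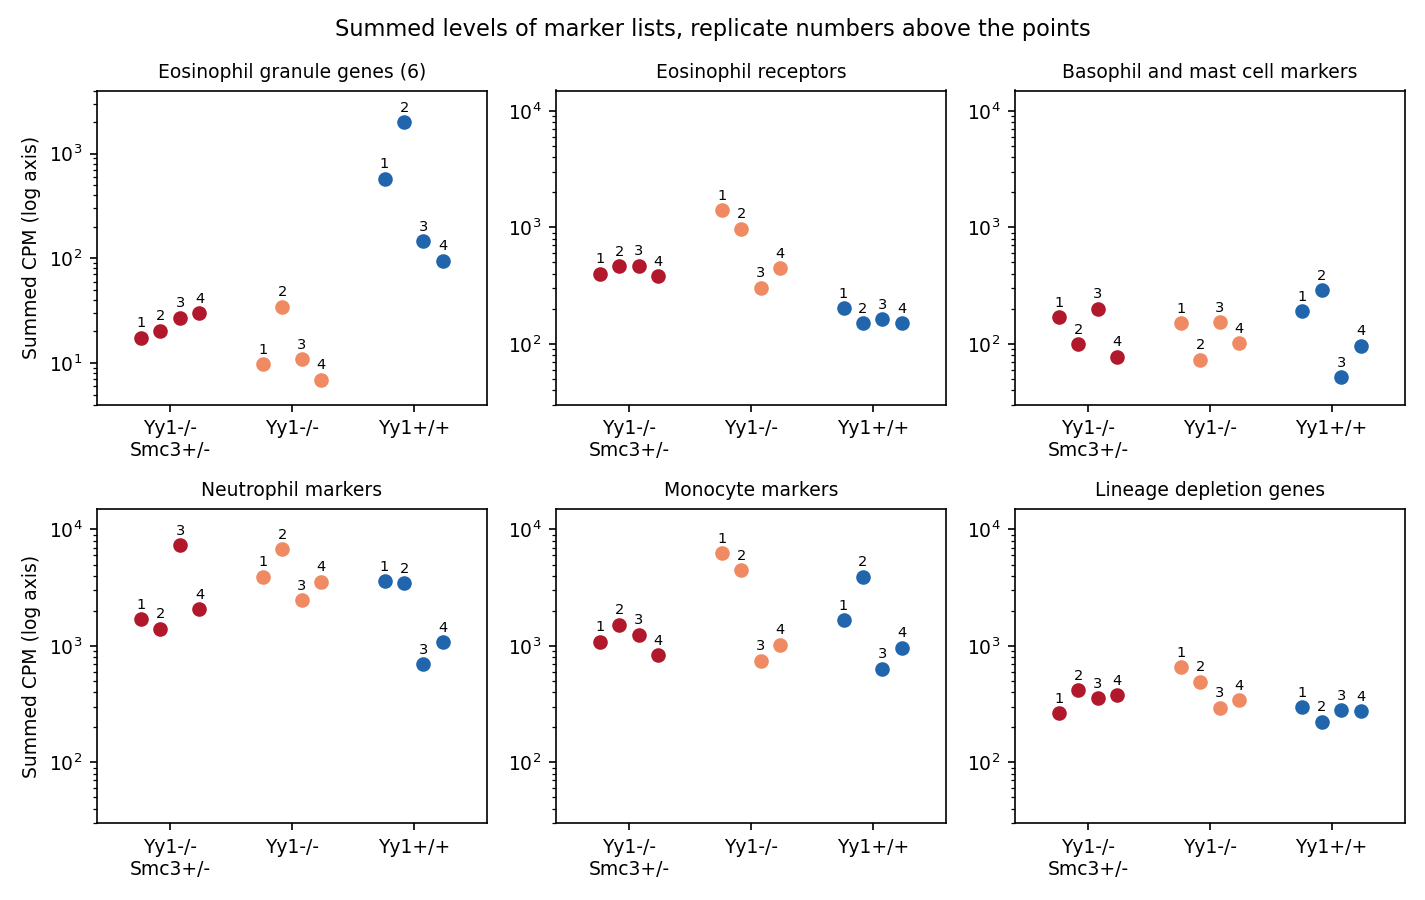
Summed CPM of the 6 granule genes and of 5 marker lists in each library, on log axes, with replicate numbers above the points and Yy1-/- Smc3+/-, Yy1-/- and Yy1+/+ from left to right. The granule genes run from 94.6 to 1994 CPM in Yy1+/+ and from 6.95 to 34.4 CPM elsewhere, while the basophil and mast cell sums of the 3 genotypes overlap.

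Likeness to the granule genes was measured as Pearson r between log2(CPM + 0.5) of a gene and the mean of the 6 members over the 12 libraries, among 11429 genes that averaged 5 CPM or more in a genotype. It is a description, since all genes that differ between Yy1+/+ and the other libraries share that contrast. An r of at least 0.9 was found for 146 genes, which is 1.28%. The closest 10 were Morf4l1-ps1, Mkln1, Dnajb4, Ankrd33b, Morf4l1, Gbe1, Supt20, Cd63-ps, Spop and Uckl1, with r between 0.94 and 0.96. Dnajb4, a co-chaperone of the Hsp40 family, had 17.7 ± 3.72 CPM in Yy1-/- Smc3+/- and 15.4 ± 2.31 CPM in Yy1-/-, against 50.8, 188, 29.8 and 39.5 CPM in Yy1+/+, so that it also stood highest in replicate 2 and next in replicate 1. Gbe1, the glycogen branching enzyme, had 37 ± 5.3 and 36.8 ± 2.87 CPM, against 84.5 ± 19.6 CPM in Yy1+/+. Morf4l1, a chromatin protein, and its pseudogene Morf4l1-ps1, and Cd63 and its pseudogene Cd63-ps, may share reads. Spop, an adaptor of a ubiquitin ligase, differed little, with 265 ± 8.96 and 270 ± 5.66 CPM, against 317 ± 23 CPM in Yy1+/+. Of the genes on the other lists, Prss34 had r = 0.91, Gata2 0.87, Rnase6 0.87 and Cd63 0.82, while Csf2rb had -0.84 and Cebpa -0.81.

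**Figure D5:**
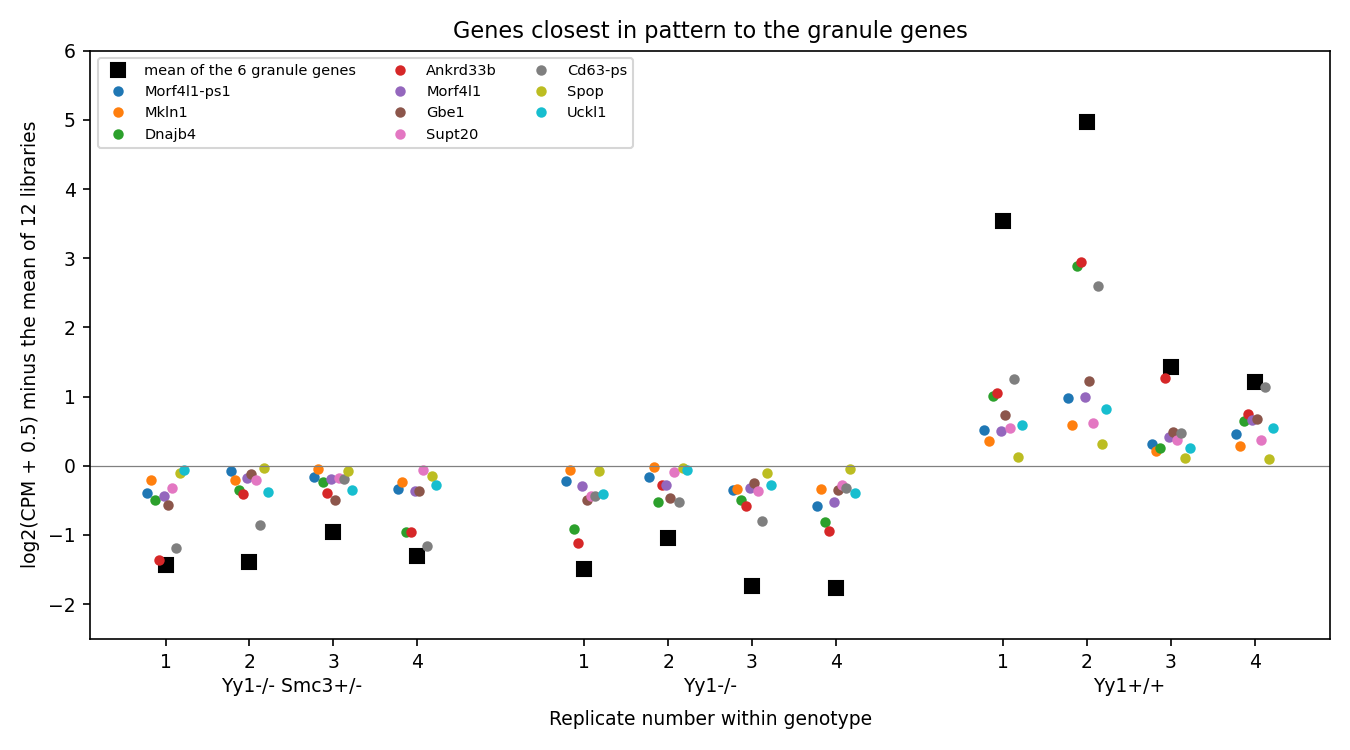
For each library, log2(CPM + 0.5) minus its mean over the 12 libraries, for the mean of the 6 granule genes (black squares) and the 10 genes closest to it in pattern (coloured points). All lie higher in the 4 Yy1+/+ libraries, and the granule genes spread far more than the others, above all in Yy1+/+ replicates 1 and 2.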

How the data were processed

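RNA sequencing libraries of sorted LSK cells were analysed, 4 for each of 3 genotypes. Per the labels' protocols, the RNeasy Micro kit gave the RNA, and full-length cDNA libraries came from the SMART-Seq v4 kit, an unstranded method for low input. Per the submitters' processing notes, STAR 2.5.2b, RSEM 1.3.0 and the build mm10 were used; settings and annotation release are not given in the sources used here. The deposited expected counts are RSEM estimates per gene, not scaled for depth, and 6.36% to 7.15% of values in a library were not whole. The deposited TPM values are scaled by length and library, and the deposited FPKM values were not used for any result. Symbols and positions come from GENCODE M21 (GRCm38, the assembly called mm10), with 93 of 55487 identifiers unmatched.

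Expected counts were rounded to whole numbers. In R 4.3.3 with edgeR 4.0.16, genes were kept with a minimum count of 10 and total of 15 (16649 genes), TMM factors were applied, and 1 quasi-likelihood model with a term per genotype was fitted to all 12 libraries. Rose and fell mean a Benjamini-Hochberg adjusted p under 0.05 over all tested genes, and errors of log2 fold changes are standard errors of the model. Where a group was at 0, folds use 3 counts over the group. No 2 libraries were near-identical.

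Alternatives were DESeq2 1.42.0 size factors and its Wald test, other filters, fits of 2 genotypes, limma 3.58.1 on log2(TPM + 1) and log2(TPM + 0.1), and leaving out each library. Motifs and alignments used Biopython 1.88 and RefSeq promoter windows of 250 bases, whose starts may differ from the GENCODE positions. Genes named are the 6 members, 11 preset eosinophil genes, up to 4 called genes with the smallest p per list and comparison, the 10 genes of most like pattern, the 3 highest markers per cell type, Yy1, Smc3, Kit and Ly6a. Genes named after their values were seen are marked so where they appear. Members and lists were chosen with earlier results of these data known. Replicate numbers follow accession order and pair nothing. Vamp7 was not matched and Retnla was not tested.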

Additional observations from a re-analysis of the deposited data

Results flagged for a closer look

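Among 64 groups of 4 libraries looked at, 6 held a library farther from the other 3 than Dixon's critical value for 4 samples allows. Chance flags about 1 in 20 groups if the values are normally distributed, which CPM values with zeros are not. Epx in Yy1-/- Smc3+/- replicate 1 was at 0.75 CPM, with 0 in the other 3 libraries of that genotype. Beside such zeros any count is flagged, so this flag was fixed in advance, and low Epx levels chose the genes. The summed level of the 6 granule genes in Yy1-/- replicate 2 was 34.4 CPM, with the next highest library at 10.9 CPM, and most of it was Prg2. The summed level of neutrophil markers in Yy1-/- Smc3+/- replicate 3, 1 of the 3 libraries with more Yy1 reads, was 7354 CPM. In Yy1+/+ replicate 2, the library with the highest levels of all 6 granule genes, Dnajb4 was at 188 CPM, Ankrd33b at 24.5 CPM and Spop at 352 CPM, and the range of the other Yy1+/+ libraries was 29.8 to 50.8 CPM for Dnajb4, 4.91 to 7.28 CPM for Ankrd33b and 303 to 308 CPM for Spop. These 3 genes were named for their likeness to the granule genes, which are themselves highest in that library.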

How the results depend on the processing

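No paired analysis was possible because the labels give no replicate numbers shared between the genotypes. Over 48 gene and comparison pairs, 912 of 956 alternative values kept their direction and their side of the threshold. The counts of list genes that rose or fell stayed within 1.5 times, except that without the 3 libraries with more Yy1 reads, chosen after seeing the data, 1 list gene (Pirb) fell in Yy1-/- Smc3+/- against Yy1-/-. Prg2 and Ear2 were not called in that comparison under any alternative run. As a share of Yy1+/+, the summed granule genes were between 2.61% and 8.7% in Yy1-/- Smc3+/- and between 1.31% and 5.69% in Yy1-/- on leaving out 1 library, with both upper values from leaving out Yy1+/+ replicate 2, and 4.2% with deposited TPM in Yy1-/- Smc3+/-. In Yy1-/- against Yy1+/+, 3 uncalled genes changed sign. On leaving out 1 library, Il5ra ran from -0.17 (without Yy1-/- replicate 2) to 1.54, Cebpe from -0.71 to 0.15 (above 0 without Yy1+/+ replicate 1 or 2 or Yy1-/- replicate 3) and Xbp1 from -0.33 to 0.16 (above 0 without Yy1+/+ replicate 2). Without the 3 libraries, Cebpe was at 0.13 and Xbp1 at 0.045. The causes were not tested. The limits are 4 libraries per genotype, PCR copies without molecular identifiers, and Yy1+/+ levels that 1 library dominates.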
